A study of Danio rerio with 2 samples.

Results

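The long arm of zebrafish chromosome 4 is described here through its accessible sites in embryos at 4 hours post fertilization (hpf), read from the list of ATAC-seq peaks that the authors deposited. A peak was counted as a long arm site if it lay on chromosome 4 of the Zv10 assembly and its summit, the point of strongest signal in the peak, was at or beyond 25 Mb. This gave 3851 sites of the 84715 in the list, or of the 82203 on the numbered chromosomes 1 to 25. They made up 82.3% of the 4679 peaks on chromosome 4, and the other 828, below 25 Mb, are called the short arm here.

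The embryos were untreated and labelled as wild type Tübingen in both replicates (the study's methods also name a Wik strain, without tying it to samples), and the study had 1 such group with 2 biological replicates of about 300 embryos per tube. Nuclei of whole embryos were exposed to the Tn5 transposase, which inserts sequencing adapters where DNA is open. The authors brought the replicates to the depth of the smaller and called fragments of 30 to 120 bp from both in a single step, so each peak has a single value, no spread between replicates can be given, and the depth is unknown. Every comparison below is therefore a description of 1 pooled list, without a test, and the intervals, all at 95%, cover counting error only and treat peaks as independent, which neighbouring peaks are not.

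Zebrafish embryos begin to switch on their own genome shortly before 4 hpf, around the midblastula transition. Open chromatin at promoters and enhancers is set up around that time. The sample titles give the stage examined here as MBT. The long arm of chromosome 4 is known as an unusual part of this genome. It is rich in repeated DNA, replicates late, is largely heterochromatic in later cells and holds few ordinary protein-coding genes, but it carries large families of zinc finger and NLR immune receptor genes, many copies of tRNA, spliceosomal snRNA and 5S rRNA genes, and the cluster of miR-430 genes, microRNAs that clear maternal messages when the zygotic genome comes on. No gene annotation or genome sequence of Zv10 was used here, so no site is assigned to any of these genes and no sequence is shown.

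Long arm sites were dense, strong and wide, and they lay close together. Over the 51.6 Mb from 25 Mb to the end of the last peak, at 76.6 Mb, there were 74.6 peaks per Mb. The other 24 numbered chromosomes together had 61.4 peaks per Mb, so the ratio was 1.22 (interval 1.18 to 1.26). The density was within the range of those chromosomes, from 44.2 on chromosome 8 to 79.9 on chromosome 9, and 3 of the 24 were denser.

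Coverage, score and width on the long arm stood outside the range of all 24 chromosomes. Peaks covered 11.5% of the long arm, against 6.12% of the other chromosomes and at most 7.74%, on chromosome 18. The median score, a value from the authors' peak caller whose scale is not named, was 224 (interval 210 to 238) against 129, with a range from 105 on chromosome 12 to 153 on chromosome 8. The median width was 860 bp (interval 840 to 880) against 730 bp, with a range of 720 to 750 bp.

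The short arm shared the high scores but not the density or the peaks wider than 5 kb. Its density was 33.1 peaks per Mb and peaks covered 3.42% of it. Its median score was 252 (interval 231 to 289), whose interval overlapped that of the long arm. Peaks wider than 2 kb made up 9.78% of the short arm peaks, also above the highest of the 24 chromosomes (8.54%). Only 2 short arm peaks, 0.242% (interval 0.0293 to 0.870), were wider than 5 kb.

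**Figure D1:**
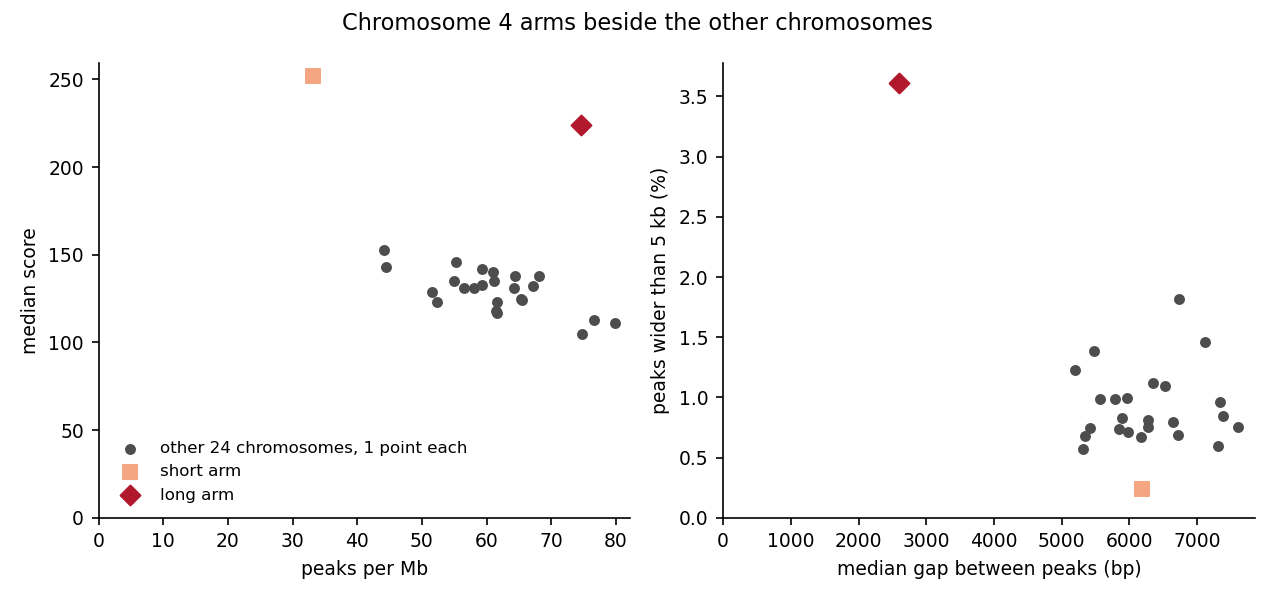
Left, peaks per Mb on the x axis against the median peak score on the y axis; right, the median gap between adjacent peaks in bp against the percentage of peaks wider than 5 kb. Each grey point is 1 of the other 24 chromosomes; the long arm (diamond, median score 224, 3.61% of peaks over 5 kb) lies above all of them on both y axes, while the short arm (square) lies above them only for score.

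The rule that placed the start at 25 Mb fell in a stretch with few peaks. The last 3 short arm peaks had summits at 24396056, 24526886 and 24937786 and scores of 197, 66 and 57. The first 3 long arm peaks had summits at 25045296, 25066056 and 25073546 and scores of 100, 34 and 566. All 6 were between 510 and 1170 bp wide.

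Along the arm the density was not even. In each of 2 windows, 20 to 35 Mb and 60 to 76 Mb, 250 kb bins were split into 2 levels with the smallest deviation on a log2 scale. Such a split, called a step here, is always found. Near the start it fell at 28.25 Mb, where the mean went from 26.7, short arm bins from 20 Mb included, to 78.2 peaks per Mb. Near the end it fell at 70.5 Mb, where the mean went from 63.3 to 13.8. The change was not clean: the bin from 26 to 27 Mb held 86 peaks and that from 28 to 29 Mb 56. These positions were used to divide the arm into a proximal section of 131 peaks (25 to 28.25 Mb), a middle section of 3632 peaks (to 70.5 Mb) and a distal section of 88 peaks. The sections were cut from the peak density itself, so their densities of 40.3, 86.0 and 14.4 peaks per Mb describe the cut and are no separate finding.

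The middle section held 3632 of the 3851 peaks, and its shares of wide and strong peaks were only a little above that. It held 135 of the 139 peaks wider than 5 kb, 472 of the 484 scoring at least 1000, and 29 of the 30 runs of wide peaks described further on, which came to 7.98 runs per 1000 peaks there and, from 1 run, 7.63 in the proximal section. The median score was 231 (interval 217 to 245) in the middle section. In the proximal section it was 111 (interval 90 to 140) and in the distal section 131 (interval 100 to 171), both close to the 129 of the other chromosomes.

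Near its start the proximal section was broken up rather than graded. The 4 bins of 250 kb from 26 to 27 Mb held 23, 17, 17 and 29 peaks, with bin medians of score between 85 and 100. From 27 to 28 Mb there were only 10 peaks, and the bin from 27.5 to 27.75 Mb held none. Above 28.25 Mb the counts rose to 10, 15, 28 and 30 peaks per bin by 29.25 Mb and the first peaks wider than 10 kb appeared, but the counts fell back to 4 in the bin from 29.5 to 29.75 Mb. The bin from 31.25 to 31.5 Mb, with 42 peaks, was the fullest up to 32 Mb.

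**Figure D2:**
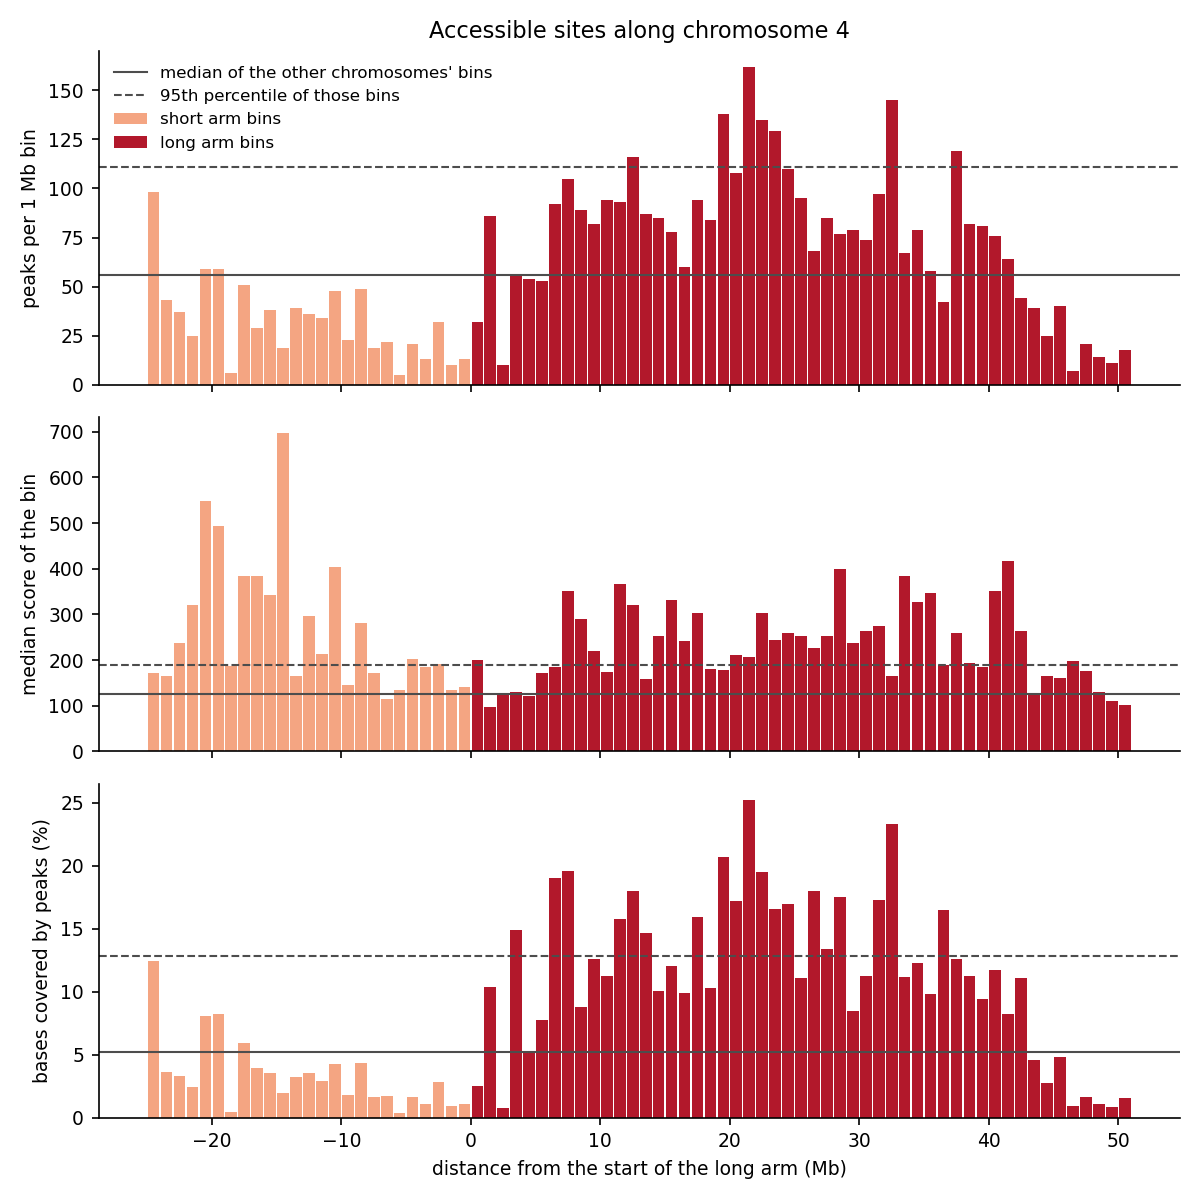
Number of peaks (top), median score (middle) and percentage of bases covered by peaks (bottom) in bins of 1 Mb, against the distance in Mb from the start of the long arm, with short arm bins to the left of 0. The solid and dashed lines are the median and the 95th percentile of the 1252 bins of the other chromosomes (56 and 111 peaks, scores of 126 and 190); 31 of the 51 long arm bins lie above the dashed line for score and 7 for the number of peaks.

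In bins of 1 Mb the long arm held from 7 to 162 peaks, with a median of 79 over 51 bins, against a median of 56 over 1252 bins of the other chromosomes. The 5 densest bins began at 46 Mb (162 peaks), 57 Mb (145), 44 Mb (138), 47 Mb (135) and 48 Mb (129), so 4 of them lay within 5 Mb of each other. Of the bins elsewhere, 4 held more peaks than the densest long arm bin. The 5 sparsest began at 71 Mb (7 peaks), 27 Mb (10), 74 Mb (11), 73 Mb (14) and 75 Mb (18), that is, all in the proximal or distal section.

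Score separated the long arm bins from those of the other 24 chromosomes more often than density did. The median score of a bin was above the 95th percentile of the other bins, 190, in 31 of the 51, while the number of peaks was above it, 111, in 7. On the short arm 14 of 25 bins were above it for score and 0 for the number of peaks. The number of peaks wider than 5 kb was above it, 2, in 27 bins, and the share of bases covered, 12.8%, in 19. The highest medians were 417 at 66 to 67 Mb, 400 at 53 to 54 Mb, 384 at 58 to 59 Mb and 367 at 36 to 37 Mb, followed by 351 in the bins that began at 32 and 65 Mb.

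None of these bins was among the 5 densest, and the densest had a median score of 206.5 only. Across the 41 bins inside the middle section Spearman's rho between the number of peaks and the median score was 0.0414, whereas over all 51 bins, sparse ends included, it was 0.354. These are correlations across places in 1 list and are given as a description.

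The added density of the long arm came from the middle and the top of the score range and not from its bottom. Peaks scoring below 100 were less dense on the long arm, at 16.2 per Mb, than on the other chromosomes, at 23.1 per Mb. From 100 to below 200 the densities were close, 18.9 and 17.9 per Mb. From 200 to below 500 they were 18.3 and 11.6 per Mb, from 500 to below 1000 they were 11.7 and 5.42, and from 1000 to below 10000 they were 8.70 and 3.11.

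At the top of the range the difference was widest. Of the long arm peaks, 484 (12.6%) scored at least 1000, against 5.26% of the peaks on the other chromosomes, at most 8.10%, and 10.6% on the short arm. At least 10000 was reached by 35 (0.909%), against 0.184% elsewhere and at most 0.429%, on chromosome 17. These 35 peaks held 54.4% of the summed score of the arm, so a sum or mean of scores over the long arm mostly reports these few places. That was not particular to the arm. Peaks scoring at least 10000 held 43.3% of the summed score of the other chromosomes together, from 1.78% on chromosome 19 to 76.9% on chromosome 17.

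Width and score rose together on the long arm across all 6 classes of width. The median score was 134 for peaks up to 700 bp, 164 up to 1 kb, 320 up to 2 kb, 707 up to 5 kb, 1056 up to 10 kb and 1716 beyond. On the short arm it also rose up to 5 kb, from 171 through 267 and 343 to 736, with 1 peak in each wider class. On the other chromosomes it rose from 96 to 246 up to 5 kb and was 213 between 5 and 10 kb. Beyond 10 kb the order was reversed, with 8673 (interval 4806 to 18804) for 96 peaks there against 1716 (interval 971 to 4309) for 52 peaks on the long arm.

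**Figure D3:**
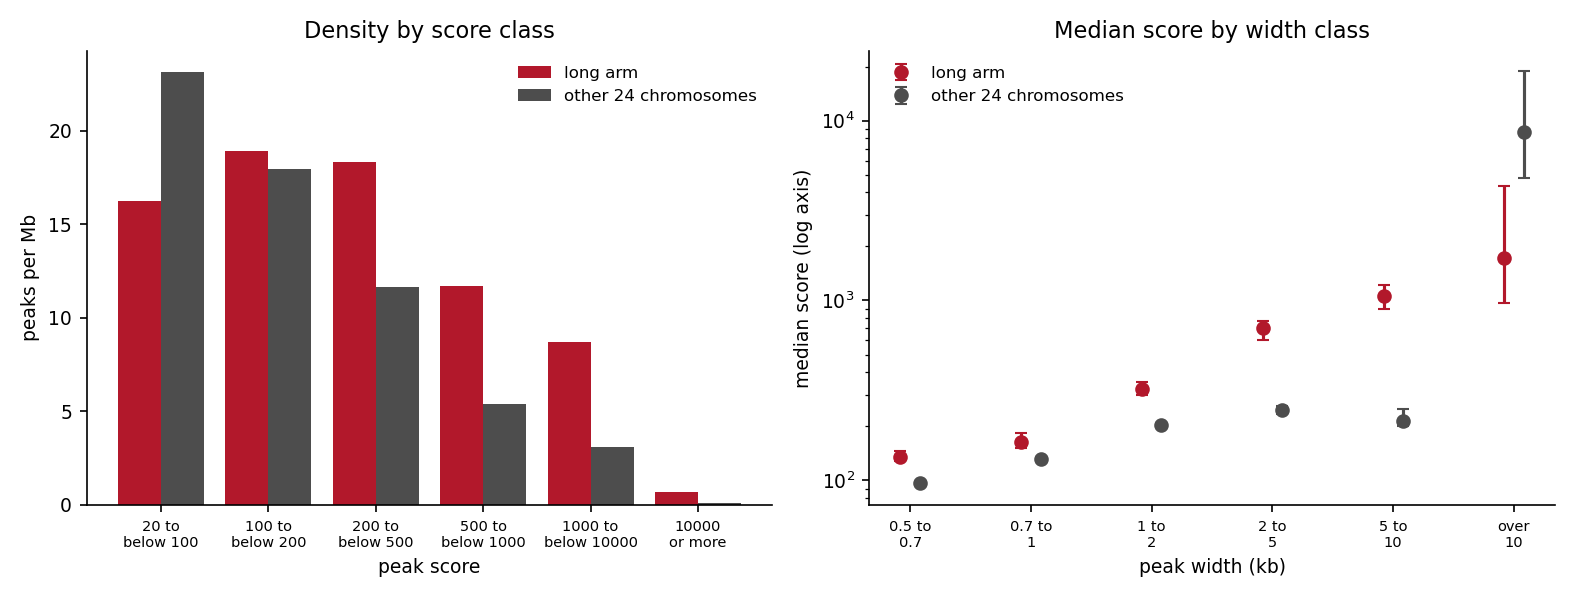
Left, peaks per Mb (y axis) in 6 classes of score, long arm beside the other 24 chromosomes: the long arm bar is lower below a score of 100 (16.2 against 23.1) and higher in every class above. Right, median score (log axis) in 6 classes of width in kb, with 95% order-statistic intervals: the long arm is higher up to 10 kb (1056 against 213 between 5 and 10 kb) and lower beyond (1716 against 8673).

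Split at a width of 1 kb, the median score on the long arm was above that of the other chromosomes on both sides. The wider side includes the peaks beyond 10 kb, where it was lower. Among peaks at most 1 kb wide the long arm median was 146 (interval 140 to 158) against 107 (interval 106 to 108). Among wider peaks it was 459 (interval 417 to 494) against 213 (interval 209 to 217). On the short arm these medians were 197 (interval 171 to 224) and 503 (interval 400 to 566), so neither was below that of the long arm. Spearman's rho between width and score was 0.459 across the long arm peaks, 0.420 across the short arm peaks and 0.375 across those of the other chromosomes.

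Wide peaks were common on the arm. Of its peaks 574, or 14.9% (interval 13.8 to 16.1), were wider than 2 kb, against 6.28% elsewhere. Wider than 5 kb were 139, or 3.61% (interval 3.04 to 4.25), against 0.921% elsewhere and at most 1.82%, on chromosome 25. With 4.68% of the peaks of the 25 chromosomes, the arm held 16.3% of the 855 peaks wider than 5 kb and 34.9% of the 149 wider than 10 kb. The 139 peaks made up 28.5% of all bases that peaks covered on the arm.

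The widest and the strongest peaks overlapped only in part. Of the 10 peaks with the highest scores, 7 were 16.83 to 21.89 kb wide, but none was among the 10 widest. Of the 139 peaks wider than 5 kb, 59 scored under 1000, as did 19 of the 52 wider than 10 kb. Over the whole arm only 484 of 3851 peaks (12.6%) scored at least 1000, so scores under 1000 were less frequent among the wide peaks. The widest, 54.18 kb from 61731261 to 61785440, scored 806. The next, 48.11 kb from 30985031 to 31033140, scored 4474.

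The other 8 of the widest peaks were 26.26 to 43.19 kb wide and spread over the middle section. The peak of 43.19 kb, from 61799261 to 61842450, scored 425, and that of 41.49 kb, from 51537581 to 51579070, scored 359. The peak of 39.42 kb, from 42071181 to 42110600, scored 6768, the highest score among the 10. A peak of 33.13 kb lay from 57560761 to 57593890, one of 29.94 kb from 67929111 to 67959050 and one of 29.64 kb from 31284131 to 31313770. The last of the 10 were 28.18 kb wide, from 53190911 to 53219090, and 26.26 kb wide, from 56640401 to 56666660. The list does not say whether the signal was even within peaks of this width.

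The highest scores fell in a few places. The highest of all, 531929, belonged to a peak of 1.99 kb from 61790951 to 61792940, in the gap between the widest and the third widest peak of the arm. The second, 336679, belonged to a peak of 17.62 kb from 76314031 to 76331650, in the otherwise sparse distal section. Next came 263922, from 28738611 to 28760500. These 3 and the other 7 of the 10 highest held 42.4% of the summed score.

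Of those 10 peaks, 5 lay in a block of 371.23 kb from 28562641 to 28933870, just beyond the proximal step. Besides the peak scoring 263922 these were 28567071 to 28588190 (145617), 28594081 to 28610910 (115922), 28916361 to 28933870 (105597) and 28611181 to 28628340 (54618). They were 16.83 to 21.89 kb wide, and a sixth peak of only 1.31 kb, from 28562641 to 28563950, scored 26782. The other 29 peaks of the block scored between 49 and 468, with a median of 111, so very strong and ordinary peaks lay side by side without values in between. The block held 17.2% of the summed score of the arm in 35 peaks.

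A second block, from 61731261 to 61888190, held 16.0% of the summed score in 6 peaks, which covered 82.8% of its 156.93 kb. The strongest peak there, scoring 531929, was flanked by peaks scoring 806 and 425. Then followed peaks of 9.56 kb and 3.35 kb, scoring 238 and 274, and at the far end a peak of 17.68 kb from 61870511 to 61888190 that scored 132766. This was the fifth highest score on the arm, and its summit lay 0.707% of the way into the peak, at its very edge.

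The last 2 of the 10 stood at 50807601 to 50809160, scoring 43950, and at 53890351 to 53891140, scoring 40037. The latter closed a stretch of 90.36 kb from 53800781 that held 5 peaks with scores in a narrow band, 34042, 34848, 34695, 32935 and 40037. Their summits were 45180, 16200, 15560 and 12640 bp apart. The 5 were 780 to 2720 bp wide, and the 12 peaks among them scored between 128 and 9769.

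After 3 of these 5 strong peaks the same order of peaks came back. A peak of 1940, 1940 and 1810 bp followed at a gap of 960, 950 and 1070 bp, with scores of 1579, 1067 and 1485. A further gap of 450, 460 and 450 bp led to a peak of 4590, 4760 and 2740 bp, with scores of 3056, 2660 and 1311. Both gaps thus came back nearly unchanged, while the last width did not. This stretch was chosen after its values were seen.

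Joined where they lay within 50 kb of each other, the 35 peaks scoring at least 10000 formed 25 groups, and only 4 peaks of the first block and the 5 of the stretch formed groups of 3 or more. The other groups ran from 26873921 to 71203050, apart from the single peak near the end of the arm. Of the 35 peaks, 13 were wider than 5 kb and 4 at most 1 kb wide.

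Wide peaks followed each other in runs. A run was counted where at least 3 adjacent peaks were wider than 2 kb with gaps of at most 10 kb. The long arm had 30 runs with 104 peaks in all, 7.79 per 1000 peaks, against 94 runs and 1.21 per 1000 peaks on the other chromosomes and at most 5.40, on chromosome 25. The short arm had 5, or 6.04 per 1000 of its peaks, so runs for a given number of peaks were frequent on both arms. These rates do not allow for the larger share of wide peaks on the arms. Of the peaks wider than 2 kb, 18.1% lay in runs on the long arm, 21.0% on the short arm and 6.93% on the other chromosomes. With peaks wider than 5 kb, a much stricter rule, the counts were 3 on the long arm and 3 on all other chromosomes together.

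The runs were short and nearly filled, but so were those on the other chromosomes. There the median length was 16.5 kb, the median covered share 89.6% and the most peaks in a run 7. Of the 30 long arm runs, 19 had 3 peaks, 8 had 4 and 3 had 5. They were 7.77 to 88.93 kb long, with a median of 14.0 kb, and peaks covered a median of 90.4% of their length. The 3 runs of 5 peaks lay from 32298051 to 32331550, with scores of 351 to 2123, from 48306511 to 48325880, with scores of 1946 to 2474, and from 60076771 to 60099070, with scores of 400 to 746. Among those of 4 peaks, the run with most bases covered lay from 61799261 to 61888190 and belonged to the second block above, and the next, from 34886451 to 34931450, had scores of 252 to 4624.

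The gaps between long arm peaks were short at the center and long at the ends of the arm. The median gap, from the end of a peak to the start of the next, was 2595 bp (interval 2390 to 2860), against 6135 bp on the other chromosomes, where the range was 5190 bp on chromosome 18 to 7600 bp on chromosome 17. Gaps under 1 kb made up 33.5% (interval 32.02 to 35.02), 1290 of 3850, against 16.4% elsewhere and at most 19.3%, on chromosome 15. Gaps of at most 300 bp, near the smallest gap of 260 bp in the list, made up 8.62% against 3.25%, at most 4.70%. The short arm was above the other chromosomes in both, with 19.7% of gaps under 1 kb and 6.41% of at most 300 bp.

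At the other end of the scale, 50 gaps (1.30%) were longer than 100 kb, against 1.74% elsewhere. The middle section, with 3631 of the 3850 gaps, had 27 of them, the proximal section 7 of 130 and the distal section 15 of 87, with 1 more across a section border. The longest was 597.1 kb, from 71232731 to 71829830, which was longer than any on the other 24 chromosomes (up to 468230 bp) but shorter than the longest on the short arm (712120 bp). It was followed by 345.87 kb from 27423471 to 27769340, 303.97 kb from 73605191 to 73909160, 286.07 kb from 74574731 to 74860800 and 270.18 kb from 71847181 to 72117360. All 5 lay in the proximal or distal section. How many of these gaps are assembly gaps was not tested.

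Peaks joined within 5 kb of each other formed 42 groups of at least 10 peaks, which held 14.5% of the long arm peaks, against 7.82% on the other chromosomes and 22.9% on the short arm. The largest held 30 peaks each, from 32248011 to 32352450 and from 62516591 to 62564720. The other chromosomes reached 71 peaks in a group, so dense groups as such were not largest on the long arm.

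Neighbours that lay close had scores more alike than distant ones, most clearly on the long arm. Across the 1290 pairs with a gap under 1 kb, Spearman's rho of the 2 scores was 0.618 on the long arm, against 0.324 across 12730 pairs on the other chromosomes and 0.296 across 163 pairs on the short arm. The higher of the 2 scores was at most 2-fold the lower in 59.4% of these long arm pairs and in 51.2% of those on the other chromosomes. For gaps of 5 to 50 kb these shares were 36.9% and 45.6%, and for longer gaps 43.8% and 47.3%. For gaps of 1 to 5 kb rho fell to 0.182 and 0.139, and for gaps of 5 to 50 kb to 0.0465 and 0.0433. These pairs share peaks and a library, and rho is given as a description.

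A small share of close neighbours were also evenly spaced, a larger share than on the other chromosomes. Where 3 adjacent summits lay less than 5 kb apart each, the spacings on both sides differed by at most 50 bp in 76 of 1223 cases on the long arm, 6.21% (interval 4.93 to 7.72). The share was 2.79% elsewhere and at most 4.33%, on chromosome 23. All 76 lay in the middle section, which also held 1200 of the 1223 cases. The short arm had 8 of 223, 3.59% (interval 1.56 to 6.95). Within 50 bp of 1190 bp, the median spacing in the longest even series, lay 3.12% (interval 2.59 to 3.72) of all long arm spacings against 1.23% elsewhere. On the short arm it was 1.93% (interval 1.11 to 3.12), and the intervals of the arms overlapped. The value of 1190 bp was taken from these same data. Nearby 0.1 kb classes were also fuller on the long arm, with 2.57% against 1.02% from 1000 bp and 2.39% against 1.28% from 1300 bp.

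The single most frequent spacing on the long arm was 2740 bp. It occurred 19 times among 3850 spacings, 0.494%, against 53 times among 77500, 0.0684%, on the other chromosomes. Their own most frequent spacing, 2000 bp, made up 0.125%. The top share of any value tends to be higher among fewer spacings, so 0.494% and 0.125% are not like for like. It made up 19 of the 62 long arm spacings from 2700 to below 2800 bp, where no other value occurred more than 6 times. Joined within 100 kb, the 19 occurrences fell in 11 places between 32.3 and 65.8 Mb, but 11 of them lay in only 3 places, arrays A, C and D described next. The other 8 were single pairs, not far from the 6 of the next most frequent value in that class. Over the whole arm the next most frequent spacings, 1680 and 2610 bp, occurred 13 times each, more often than these 8. The short arm had it in 0 of 827 spacings, which allows a share of up to 0.363%. Within 50 bp of 2740 bp lay 1.77% (interval 1.37 to 2.23) of the long arm spacings, 1.57% (interval 0.840 to 2.67) of the short arm spacings and 1.09% elsewhere, and the intervals of the arms overlapped.

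**Figure D4:**
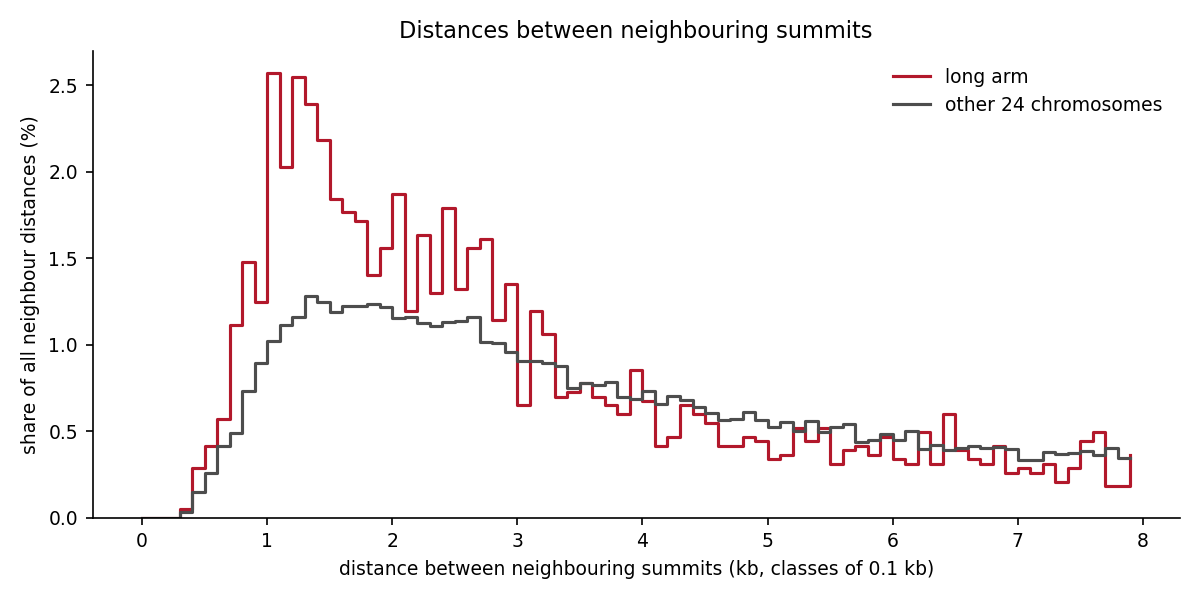
Distance between neighbouring summits in classes of 0.1 kb (x axis, kb) against the share of all such distances in percent (y axis), for the long arm and for the other 24 chromosomes. The long arm line is higher between 1 and 3 kb and uneven, highest at 1000 bp (2.57% against 1.02%), and the class that starts at 2700 bp (1.61% against 1.02%) does not stand out from those at 2000 bp (1.87%) and 2400 bp (1.79%).

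In 8 places, called arrays here, at least 4 summits followed each other with spacings that changed by no more than 50 bp from each to the next. That was 2.08 arrays per 1000 peaks, against 10 arrays, 0.129 per 1000 peaks, on the other chromosomes, where the longest had 7 summits. On the long arm the longest had 8. Rates per 1000 peaks do not allow for the closer packing of the long arm, where the median summit spacing was 4382.5 bp against 7140 bp. The arrays fell into a short kind, with spacings of 1160 to 1230 bp, and a long kind, with spacings of 2680 to 2770 bp.

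Of the long kind, 2 arrays lay in a single stretch of 16 peaks from 32251111 to 32289130, called array A in the plot of evenly spaced peaks. Summits there were exactly 2740 bp apart in 6 of the 15 steps. Another 5 steps were 1300 to 1470 bp long. The 16 peaks scored between 806 and 2084, with a median of 1143. Over the whole arm the quartiles of score were 106 and 566 and the 95th percentile 2193.5. The stretch was chosen after its values were seen, and close neighbours on the arm often had like scores.

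Array D, from 63508771 to 63524630, had 6 peaks, the first 4 of which met the rule, spaced by 2695, 2740, 2770, 2710 and 2740 bp, each 1980 to 2620 bp wide, with scores of 1520 to 2809. Array B, from 34986481 to 34995070, had 4 peaks of lower score, 282 to 557, at spacings of 2690, 2680 and 2680 bp. A further stretch that held spacings of 2740 bp among others, called array C although it did not meet the rule, ran from 48303891 to 48333740. It had 9 peaks with scores of 1724 to 3001. Its spacings were 1980, 5470, 2740, 2740, 5480, 4080, 2740 and 1400 bp. Its widest peaks, of 5210 and 5460 bp, each lay at an end of a spacing of 5470 or 5480 bp.

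The arrays of the short kind, with median scores of 203.5 to 494, were weaker than arrays A, C and D, with 1143 to 2362. They were not weaker than array B as a group, whose median was 343.5. Their widest peak was 1320 bp, against 2820 bp in array A and 1220 bp in array B. Array F, from 62531261 to 62540450, had 8 peaks of 560 to 830 bp at spacings of 1230, 1220, 1180, 1190, 1190, 1210 and 1170 bp. Their scores went up and down between 152 and 400. A series of 4 peaks from 62518791 to 62522850, in the same group of 30 peaks, had spacings of 1200, 1210 and 1160 bp and scores of 224 to 697.

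Array E, from 47605561 to 47615290, had 8 peaks at spacings of 1240, 1160, 1240, 1160, 1200, 1210 and 1180 bp, with scores of 320 to 887. Only its last 5 summits met the rule for an array, since the first spacings alternated by more than 50 bp. The remaining array, of 4 peaks from 47084521 to 47088940, had spacings of 1185 to 1205 bp and scores of 158 to 312. Reads with several equally good placements were put by the authors at 1 of them at random, and what this does to scores in arrays of like peaks was not tested.

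**Figure D5:**
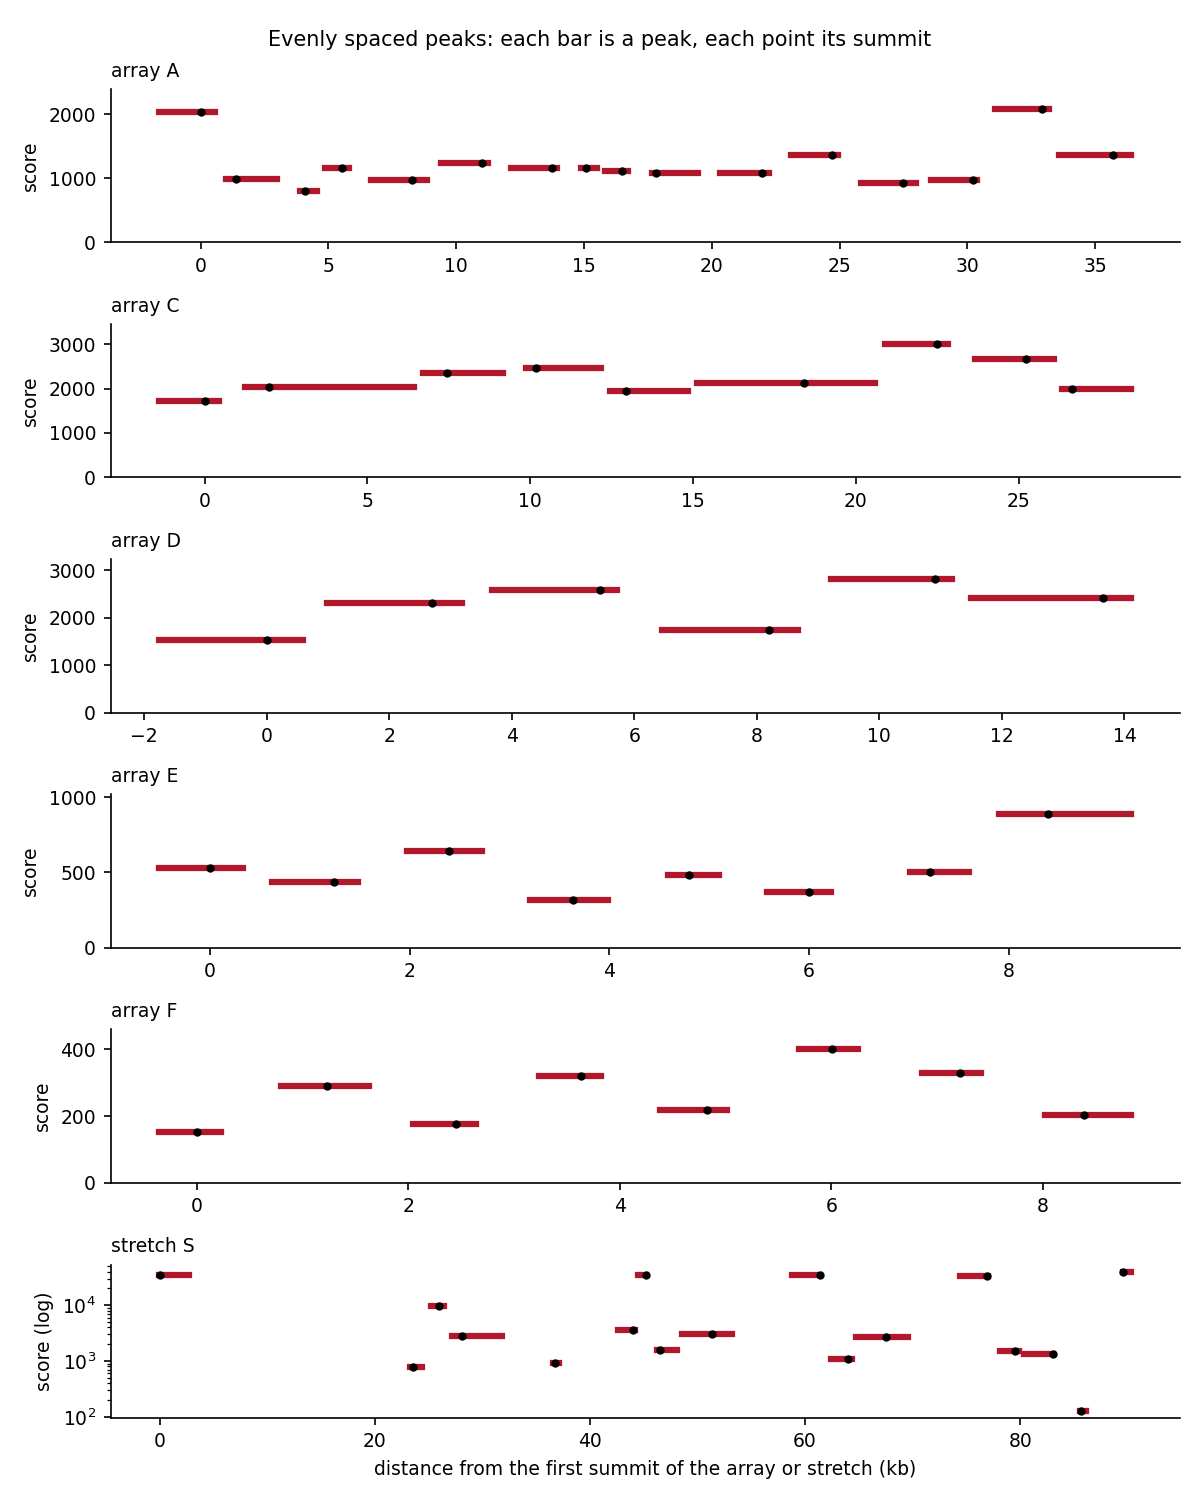
Score (y axis, log axis for stretch S only) against the distance in kb from the first summit (x axis) in 6 places on the long arm, with each peak as a bar from its start to its end and its summit as a point. Array D repeats at about 2740 bp, while arrays A and C hold steps of 2740 bp among shorter and longer ones. Scores in arrays A, C and D are 806 to 3001. Arrays E and F repeat at about 1190 bp with scores of 152 to 887. Stretch S, from 53800781 to 53891140, shows its 5 strong peaks between 32935 and 40037.

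The first 4 peaks of array D, evenly spaced from 63508771 to 63519200, were also a run of wide peaks. Array C, which did not meet the rule for an array, held a run of 5 wide peaks, from 48306511 to 48325880. The run from 32298051 to 32331550 lay beyond array A in the same group of 30 peaks. Its summits were 6300, 11070, 4290 and 8880 bp apart, with no even spacing. As whole embryos were used, a higher score could come from more cells in which a place was open or from more opening in each cell. These cannot be told apart. What repeated DNA and the random placement of reads do to the scores of the arm was not tested either, so a score is not a plain measure of openness.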

How the data were processed

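Untreated wild-type embryos at 4 hpf were measured by ATAC-seq, with 2 biological replicates of 2 and 3 sequencing runs. Paired-end reads of 150 bp were mapped by the authors with Novoalign (3.8 in the submitters' processing notes) to Zv10, reads with several placements going to 1 at random, and runs were merged with SAMtools. Peaks came from fragments of 30 to 120 bp of both replicates (Multi-Replica Macs ChIPSeq Wrapper, cutoff 2). Peak names carry the words nodedup and noChrM. The deposited list gives position, summit and a score per peak on an unnamed scale. Its fold, p-value and q-value columns hold only 0 and were not used.

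Peaks were used with no further filter, with starts counted from 1. Lengths ran to the end of the last peak of each chromosome. Shares have exact binomial intervals and medians order-statistic intervals. The functions for gaps, evenly spaced triplets, runs, arrays and steps were tested on simulated data, and that for groups was not. Members and settings were chosen with earlier results of these data known. The sections, arrays, blocks, stretches and the spacing of 2740 bp were chosen after their values were seen. Places named by rule were the 10 highest and 10 widest peaks, the 5 runs with most members, the 5 largest gaps, the 5 densest and 5 sparsest bins and the 5 with the highest median score. Ties among runs were ordered by covered bases. Gene and motif parts of that rule need a Zv10 annotation or sequence, not used here. Alternatives for score limits, width and gap limits, bins, tolerance and the start of the arm were tried. The software was scipy 1.17.1, numpy 2.4.6 and pandas 2.3.3 under Python 3.11.15, with matplotlib 3.10.9 for plots.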

Additional observations from a re-analysis of the deposited data

How the results depend on the processing

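The density ratio was 1.26 with the arm starting at 30 Mb and 1.26 with the outer 1 Mb of the other chromosomes left out. The median score was 146 among peaks at most 1 kb wide, against 107 elsewhere. The share of wide peaks was 7.32% with a limit of 3 kb and 1.35% with 10 kb, against 2.69% and 0.124% elsewhere. The median distance was 4382.5 bp from summit to summit, against 7140 bp, and gaps under 2 kb made up 45.2%, against 26.9%. With peaks wider than 5 kb there were 3 runs and 3 elsewhere, or 0.779 and 0.0387 per 1000 peaks.

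Alternatives chosen after seeing the data gave a density ratio of 1.40 in the middle section alone. With only peaks scoring at least 100 the ratio was 1.53, the median score 335 against 213 elsewhere, and the share over 5 kb 4.61% against 1.47%. Evenly spaced triplets made up 2.45% with a tolerance of 10 bp and 2.97% with spacings under 20 kb, against 0.806% and 1.12%. The step near the end lay at 68.8 Mb in 100 kb bins and at 68.75 Mb by covered bases, so the distal section has no sharp start, and the step near the start stayed between 28.25 and 28.5 Mb. In each comparison the long arm kept its direction relative to the other chromosomes. No paired analysis was possible because the list holds a single value for the 2 replicates, which form 1 group, and for the same reason no replicate could be omitted. Depth is unknown, and sites too weak to be called were not counted.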
